A study of Mus musculus with 28 samples.

Results

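Blood clotting at a vessel wall starts when tissue factor, encoded by *F3*, meets coagulation factors in the blood and activates factor X, encoded by *F10*, which leads to thrombin and fibrin. The wall holds the process back with thrombomodulin (*Thbd*) and the endothelial protein C receptor (*Procr*), which together turn thrombin into an activator of the anticoagulant protein C, and with tissue factor pathway inhibitor (*Tfpi*), which blocks tissue factor and factor Xa. Fibrin is later dissolved by plasmin, which tissue-type (*Plat*) and urokinase-type (*Plau*) plasminogen activators release from plasminogen, the latter at its cell surface receptor (*Plaur*), while protease nexin-1 (*Serpine2*) inhibits thrombin and both activators. These 9 coagulation and fibrinolysis genes were taken by symbol from the 56980 genes of the bulk count table and from the 32285 genes of the single-cell matrices, and all 9 were present in both. Plasma clotting factors come mainly from the liver, so the genes described here are those that a vessel wall and the blood cells on and in it can express.

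In male and female C57BL/6 mice the study sutured a jugular vein, by its cut end, onto the side of a carotid artery to make an arteriovenous fistula (AVF), and compared the remodeled vein with the unoperated jugular vein of the contralateral side. All mice, including those that gave contralateral veins, had previously undergone a 5/6 nephrectomy. Bulk RNA sequencing covered 7 contralateral veins (5 from females), 8 early AVFs (3 from females), 5 mid AVFs (3 from females), and 5 late AVFs (3 from females), with 1 library per vessel, and the AVF titles carry the nominal days 3, 10, and 21. By the paper, the actual days of harvest spread more widely among early AVFs than among mid or late AVFs. The actual day of each vessel is not given, and its part in the spread among early libraries was not tested. Single-cell RNA sequencing covered 3 libraries, 1 for each of the contralateral, early, and late stages, each made from a pool of 10 vessels of mixed sex. A contralateral vein is thus an unoperated vein of a mouse with reduced kidney mass, not of an intact mouse. No age is given for the mice in the sources used here.

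The 9 genes did not move as a group. Against contralateral veins, *F3* and *Thbd* fell and *F10* and *Plaur* rose in early AVFs, *F3* was still lower in mid AVFs, and *Serpine2* was higher in late AVFs. A gene was called where edgeR's quasi-likelihood test gave a Benjamini-Hochberg adjusted *p* under 0.01 over 12673 genes and the log2 fold change was at least 1 in size. By this rule 4 of the 8 members tested were called in early AVFs, where 12.6% of all genes were. In mid AVFs 1 of 8 was called (6.05% of all genes) and in late AVFs 1 of 8 (5.33% of all genes). The median log2 fold change of the 8 members was −0.23, 0.11, and −0.06 in these 3 comparisons, beside −0.0067, −0.10, and −0.093 for all genes tested.

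The 250 bases before the start of 4 of these genes are shown because *F3*, *F10*, *Plaur*, and *Serpine2* are the members that passed the test against contralateral veins and for which a window was found. They come from RefSeq on GRCm38.p6, where 6 of the 9 members had a window, and *Thbd*, *Plat*, and *Plau* had none in this table. The windows are *F3* at chr3:121723287-121723536 on the plus strand, *F10* at chr8:13037058-13037307 on the plus strand, *Plaur* at chr7:24462233-24462482 on the plus strand, and *Serpine2* at chr1:79858666-79858915 on the minus strand. The RefSeq start used for *Serpine2* lies inside the GENCODE M21 gene, whose outer end is at 79861180, so its window is not upstream of the longest gene model. Each is written 5′ to 3′ on the strand of its gene, and capitals mark the matches to 6 short motifs searched on both strands.
F3: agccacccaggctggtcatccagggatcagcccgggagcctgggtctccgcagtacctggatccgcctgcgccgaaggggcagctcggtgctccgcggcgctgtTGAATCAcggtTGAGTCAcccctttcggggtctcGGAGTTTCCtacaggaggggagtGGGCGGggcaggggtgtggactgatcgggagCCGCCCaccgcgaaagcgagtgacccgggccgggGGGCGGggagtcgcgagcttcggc
F10: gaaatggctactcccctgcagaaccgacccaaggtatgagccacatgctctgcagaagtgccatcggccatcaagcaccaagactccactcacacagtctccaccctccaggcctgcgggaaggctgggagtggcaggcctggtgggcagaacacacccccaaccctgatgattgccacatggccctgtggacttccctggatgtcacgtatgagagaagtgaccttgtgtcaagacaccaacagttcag
Plaur: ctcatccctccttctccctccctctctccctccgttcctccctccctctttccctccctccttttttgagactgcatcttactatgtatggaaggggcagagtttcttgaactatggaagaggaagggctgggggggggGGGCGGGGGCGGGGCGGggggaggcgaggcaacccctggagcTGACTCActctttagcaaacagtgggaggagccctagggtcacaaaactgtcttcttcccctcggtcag
Serpine2: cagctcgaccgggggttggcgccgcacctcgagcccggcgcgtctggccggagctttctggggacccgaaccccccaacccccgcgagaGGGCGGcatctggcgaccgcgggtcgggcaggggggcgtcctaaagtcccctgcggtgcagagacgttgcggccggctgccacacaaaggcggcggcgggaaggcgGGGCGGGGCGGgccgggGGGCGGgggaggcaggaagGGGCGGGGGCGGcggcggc

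In the *F3* window the capitals held 2 matches to the AP-1 motif (TGANTCA), 1 match to the NF-kB motif (GGANTTTCC), and 3 to the GC box (GGGCGG), with no overlap among them. The *Plaur* window held 1 AP-1 match and 1 Egr match (GCGNGGGCG), which overlapped 2 of its 3 GC boxes. The *Serpine2* window held 6 GC boxes, the last 2 of which overlapped its 1 Egr match, and 78.8% of its bases were G or C. None of the 6 motifs, which also included the CRE (TGACGTCA) and the TATA box (TATAAA), was found in the *F10* window. Over the 7 windows of the members, which include 2 of *Tfpi* and 1 of *Procr*, the AP-1 motif was in 3, the Egr motif in 2, the NF-kB motif in 1, the GC box in 5, the TATA box in 1, and the CRE in 0. Of all 32851 RefSeq windows of the same length, 6.749% held the AP-1 motif, 4.697% the Egr motif, 1.065% the NF-kB motif, 32.742% the GC box, 12.368% the TATA box, and 1.546% the CRE. The median share of G or C was 52.4% over all windows. It was 78.8% for *Serpine2*, 70% for *F3*, 61.6% for *Procr*, 59.6% for *Plaur*, 57.6% for *F10*, and 48.4% and 52.8% for *Tfpi*. The shares of all windows were not matched for this composition. A match is only a run of letters, and no measurement of binding was made.

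The bulk libraries held 20254173 to 67457501 counted reads, and levels are given as CPM, the counts scaled to a fixed library total, after TMM scaling. Contralateral veins were the least alike, with a median Spearman correlation of 0.587 to 0.741 to the other veins of their group, against 0.801 to 0.964 for AVF libraries. Contralateral library 28 had the lowest value and the most B cell marker RNA (2855 CPM summed, at most 752 CPM in any other library). Without it the members called still numbered 4, 1, and 1 in early, mid, and late AVFs. Cell type markers also differed among the groups. The 14 endothelial markers summed to 2434–4283 CPM in contralateral veins and 456–1253 CPM in AVFs, and 9, 7, and 6 of them were called lower in early, mid, and late AVFs. The 11 smooth muscle markers summed to 16111–33584 CPM in contralateral veins and 1676–4731 CPM in AVFs, with 10, 9, and 9 called lower. The 12 mono/macro markers summed to 2196–8584 CPM in contralateral veins and 12042–36594 CPM in early AVFs, with 10 called higher. Of 7 neutrophil markers tested 6 were called higher in early AVFs, and *Ly6g*, which defines neutrophils, was at 0 in all contralateral libraries. Early library 6 held the most neutrophil (4240 CPM) and platelet (11974 CPM) marker RNA, and early libraries 6 and 7 held little fibroblast marker RNA (5605 and 3636 CPM), while the other early libraries had 11638 CPM or more. Of 8 skeletal muscle markers 8, 8, and 7 were called higher in early, mid, and late AVFs, with sums of 1.19–31.9 CPM in contralateral veins and up to 8391 CPM in late library 23.

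*F3*, the cell surface starter of coagulation, is on chromosome 3 (GRCm38 121723537–121735048, plus strand). The 7 contralateral libraries 27, 28, 31, 34, 35, 632, and 633 held 120 to 936 CPM with a median of 463 CPM. In 8 early AVFs *F3* ranged from 28.1 to 183 CPM with a median of 77.0 CPM. Contralateral library 35 (120 CPM) was the only vein inside the early range, and every other vein was above it. The 5 mid AVFs had 82.7, 119, 132, 133, and 151 CPM. The 5 late AVFs had 154, 156, 230, 257, and 559 CPM. Every late AVF was thus above every mid AVF, and the late range overlapped that of the veins. From contralateral veins through early and mid to late AVFs, the means were 489 ± 275 CPM (SD, n = 7), 81.8 ± 51.5 CPM (n = 8), 123 ± 25.4 CPM (n = 5), and 271 ± 167 CPM (n = 5).

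Against contralateral veins, *F3* fell in early AVFs by 2.55 on the log2 scale (SE 0.40, edgeR's quasi-likelihood test, Benjamini-Hochberg adjusted *p* = 2.83e-05). It fell in mid AVFs by 1.96 (SE 0.46, adjusted *p* = 0.00494, edgeR). In late AVFs the log2 fold change was −0.86 (SE 0.44) and did not pass the test (adjusted *p* = 0.226). Between late and early AVFs the log2 fold change was 1.69 (SE 0.41, adjusted *p* = 0.0108), just outside the threshold, and without late library 17 it was 1.27 (adjusted *p* = 0.0843). The *F3* call in mid AVFs was lost without contralateral library 632 (−1.73, adjusted *p* = 0.0103) and without any 1 of the 5 mid libraries (−2.04 to −1.92, adjusted *p* from 0.0113 to 0.0173). Fibroblast markers moved with *F3* in part: 5 of 11 were called lower in early AVFs, 1 in mid, and 0 in late AVFs, with median log2 fold changes of −1.48, −0.034, and 0.29. Early libraries 7, 6, and 5 had the lowest fibroblast marker sums (3636, 5605, and 11638 CPM) and *F3* at 36.1, 28.1, and 68.5 CPM, and late library 17 had the highest sum (77468 CPM). The mid AVFs had 36756–59564 CPM of fibroblast markers beside 17381–47261 CPM in the veins. The part of fibroblast content in the *F3* result was not tested. In bulk tissue fewer cells of a type and less RNA per cell cannot be told apart, and the *p* values measure the spread between these vessels only.

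*F10*, the zymogen that tissue factor activates, is on chromosome 8 (13037308–13056676, plus strand). Contralateral veins were near 0: 3 libraries (28, 31, and 632) had no read, and libraries 34, 27, 633, and 35 had 0.0901, 0.553, 3.90, and 8.98 CPM. A count of 0 in these 3 veins allows a level of up to 0.189 CPM (3 counts per library). Early AVFs ranged from 13.7 to 81.6 CPM with a median of 26.2 CPM. The 5 mid AVFs had 18.1, 18.6, 20.6, 22.6, and 27.6 CPM, and the 5 late AVFs had 8.91, 10.7, 14.9, 16.6, and 18.2 CPM. Every early and every mid AVF was above every contralateral vein, and 1 late AVF (library 24) was just below contralateral library 35. The means were 1.93 ± 3.42 CPM (SD, n = 7), 33.7 ± 21.8 CPM (n = 8), 21.5 ± 3.85 CPM (n = 5), and 13.9 ± 3.94 CPM (n = 5) in contralateral, early, mid, and late vessels.

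In early AVFs *F10* rose by 4.13 on the log2 scale (SE 1.04, adjusted *p* = 0.00475, edgeR's quasi-likelihood test with Benjamini-Hochberg adjustment). The log2 fold change was 3.45 in mid (SE 1.06, adjusted *p* = 0.0314) and 2.79 in late AVFs (SE 1.04, adjusted *p* = 0.0821), neither past the threshold. The *F10* call in early AVFs was lost without contralateral library 27 (3.99, adjusted *p* = 0.0103) or early library 6 (3.82, adjusted *p* = 0.0110). Without contralateral library 35, *F10* passed in mid (4.77, adjusted *p* = 0.00345) and late AVFs (4.11, adjusted *p* = 0.00974) as well. Mono/macro markers moved with *F10* between the groups. Within early AVFs the 3 libraries with the highest mono/macro sums, 5, 3, and 6 (36594, 33272, and 30644 CPM), had 38.3, 13.7, and 81.6 CPM of *F10*. The part of mono/macro content in the result was not tested.

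**Figure D1:**
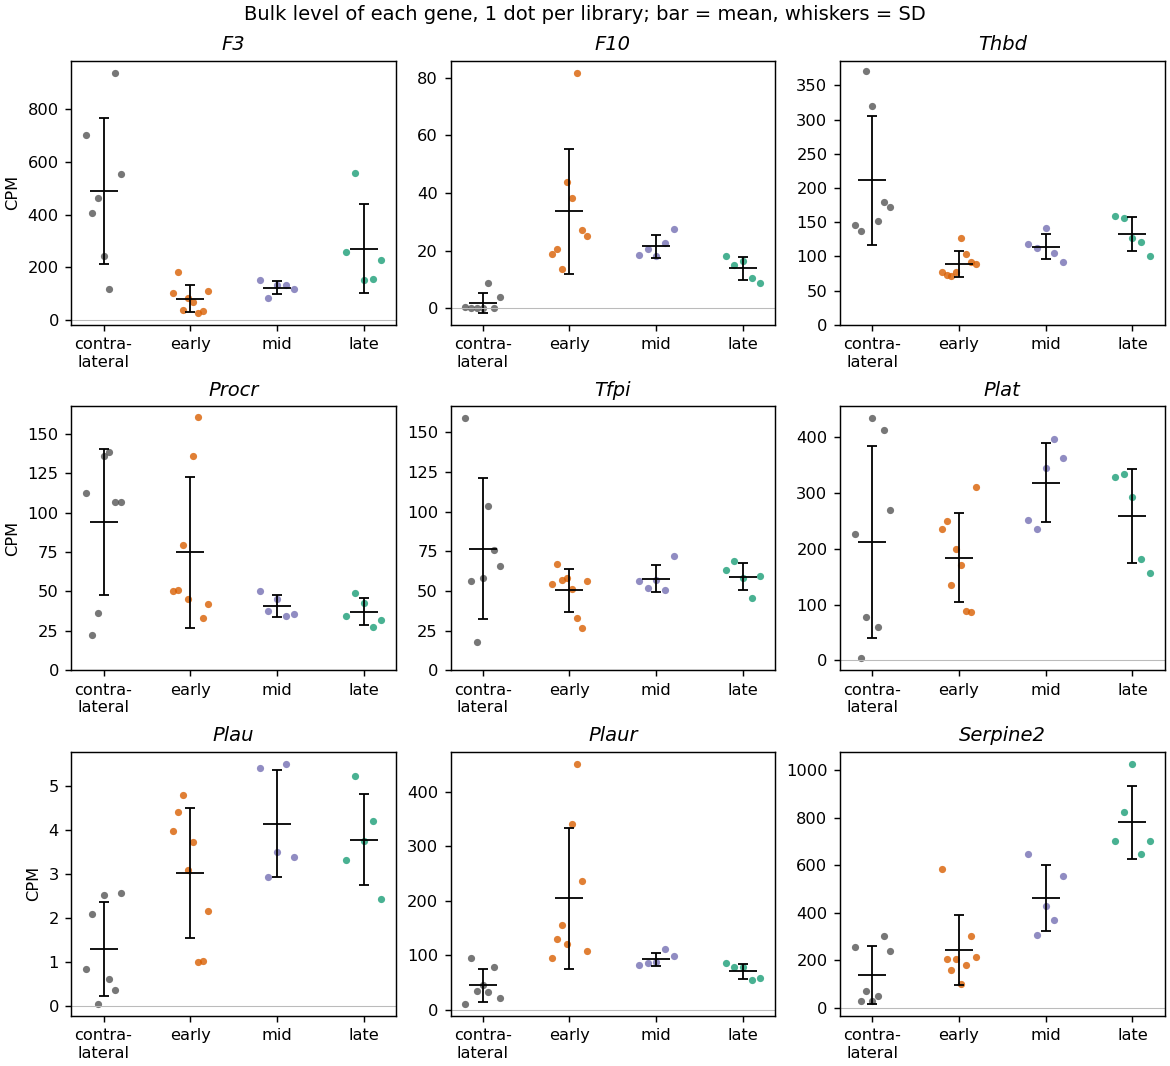
Bulk level of each of the 9 genes in CPM (vertical axes, each from 0) in contralateral veins (n = 7) and in early (n = 8), mid (n = 5), and late (n = 5) AVFs, with 1 dot per library, a bar at the mean, and whiskers of 1 SD. *F3* drops from 120–936 CPM to 28.1–183 CPM in early AVFs, *F10* leaves a level near 0, and *Serpine2* is highest in late AVFs (649–1028 CPM).

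Of the 3 anticoagulant genes, *Thbd*, whose product binds thrombin on the endothelium, was lower in early AVFs. It lies on chromosome 2 (148404466–148408188, minus strand). Contralateral veins held 137 to 371 CPM with a median of 172 CPM, and early AVFs 70.9 to 127 CPM with a median of 82.7 CPM. Every early AVF was below every vein. Mid AVFs had 92.4, 105, 112, 118, and 142 CPM, and late AVFs had 101, 121, 127, 156, and 160 CPM, so both stages overlapped the lowest veins. The means were 211 ± 94.1 CPM (SD, n = 7), 88.6 ± 19.0 CPM (n = 8), 114 ± 18.4 CPM (n = 5), and 133 ± 24.8 CPM (n = 5). Relative to contralateral veins *Thbd* fell by 1.21 on the log2 scale in early AVFs (SE 0.22, adjusted *p* = 0.000206, edgeR), with log2 fold changes of −0.86 (adjusted *p* = 0.0243) in mid and −0.67 (adjusted *p* = 0.0845) in late AVFs that did not pass. Contralateral libraries 31 and 34 stood above the other 5 veins, at 371 and 320 CPM, and without library 31 the early log2 fold change was −0.996, just inside 1. The fall of *Thbd* ran beside the fall of endothelial markers, of which 9 of 14 were called lower in early AVFs. At the mid stage 7 of them still were, and at the late stage 6, while *Thbd* did not pass. Fibroblast markers fell as well, with 5 of 11 called lower at first, then 1, then 0. Fibroblast-like cells held more *Thbd* RNA than endothelial-like cells in the contralateral single-cell library, as did mono/macro-like cells in the early one. The part of endothelial, fibroblast, and mono/macro content in the *Thbd* result was not tested.

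*Procr*, the receptor that presents protein C to thrombomodulin (chromosome 2, 155751117–155755471, plus strand), held 22.1 to 139 CPM in contralateral veins (median 107 CPM) and 33.4 to 161 CPM in early AVFs (median 50.8 CPM). Contralateral library 28 was the lowest vein, and early libraries 6 and 5 were the highest AVFs at 161 and 136 CPM. Mid AVFs had 34.6, 35.8, 37.5, 45.4, and 50.5 CPM, and late AVFs 27.7, 31.7, 34.7, 42.4, and 49.1 CPM. All mid and late AVFs were below 5 of the 7 veins and above contralateral library 28, and contralateral library 31 (36.5 CPM) lay within both ranges. Against contralateral veins, early AVFs differed by −0.29 on the log2 scale (SE 0.37, adjusted *p* = 0.640), mid AVFs by −1.20 (SE 0.44, adjusted *p* = 0.0734), and late AVFs by −1.36 (SE 0.44, adjusted *p* = 0.0438, edgeR), and without library 28 the late value was −1.51 (adjusted *p* = 0.0114). *Procr* was not called at any stage.

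*Tfpi*, the inhibitor of the tissue factor complex (chromosome 2, 84432855–84476775, minus strand), ranged from 17.5 to 159 CPM in veins (median 65.8 CPM) and from 26.6 to 66.9 CPM in early AVFs (median 55.4 CPM). The mid AVFs held 50.9, 51.9, 56.5, 57.1, and 72.0 CPM, and the late AVFs 45.3, 58.2, 59.3, 63.0, and 68.6 CPM. All 3 AVF ranges lay inside that of the veins. Its log2 fold changes were −0.58 (SE 0.30), −0.39 (SE 0.35), and −0.39 (SE 0.35), with adjusted *p* values of 0.183, 0.529, and 0.533 (edgeR).

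**Figure D2:**
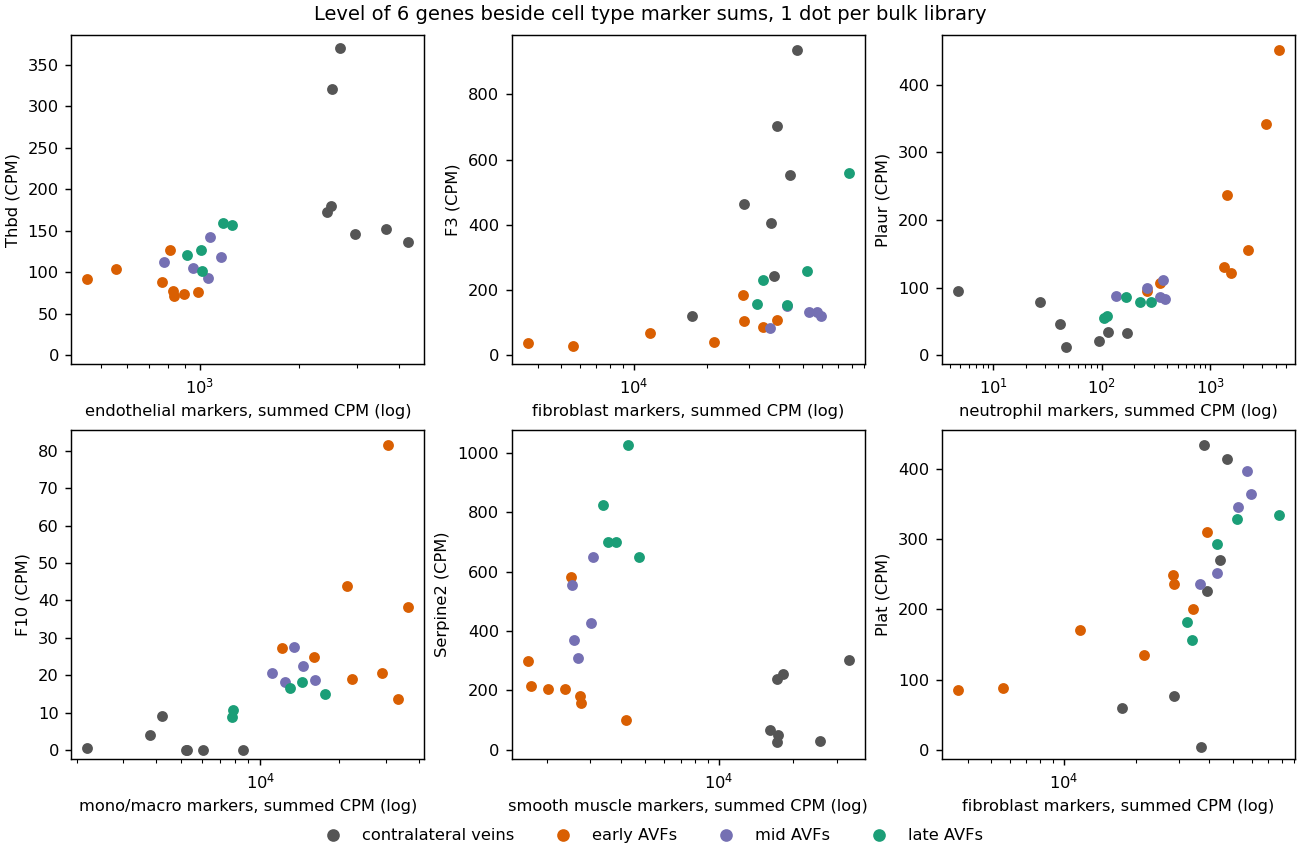
Level of 6 of the genes in CPM (vertical axes) against the summed CPM of a cell type marker list (horizontal axes, log scale), with 1 dot per bulk library and colors for the 4 groups. *Thbd* and endothelial markers are both lowest in early AVFs, the early AVF with the most neutrophil marker RNA (4240 CPM) has the highest *Plaur* (451 CPM), and *Serpine2* is highest in late AVFs (649–1028 CPM), whose smooth muscle marker sums stay below those of every vein.

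Of the plasminogen activators, *Plat*, which acts mainly on fibrin, was not called at any stage. It is on chromosome 8 (22757727–22782844, plus strand). Contralateral veins spanned 3.77 to 434 CPM with a median of 226 CPM, and library 28 was the lowest. Early AVFs held 85.8 to 310 CPM (median 185 CPM), mid AVFs 236, 252, 345, 364, and 397 CPM, and late AVFs 156, 182, 294, 328, and 335 CPM. All AVF values fell inside the range of the veins. The log2 fold changes were −0.17 (SE 0.50), 0.61 (SE 0.56), and 0.28 (SE 0.56), with adjusted *p* values of 0.852, 0.545, and 0.815 (edgeR), and the early value turned positive without contralateral library 34 (0.13) or 632 (0.066).

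*Plau*, the urokinase gene (chromosome 14, 20836660–20843385, plus strand), was counted 1 to 198 times per library and was the member left out of the test by the minimum mean normalized count of 100. Its level was 0.0448 to 2.56 CPM in veins (median 0.830 CPM) and 0.992 to 4.78 CPM in early AVFs (median 3.41 CPM). Mid AVFs had 2.94, 3.38, 3.48, 5.40, and 5.50 CPM, and late AVFs 2.42, 3.32, 3.74, 4.19, and 5.23 CPM. Every mid AVF was above every vein, and the lowest early and late AVFs overlapped them. With the lower minimum of edgeR's filterByExpr, which tested 20076 genes, the log2 fold changes were 1.19 (SE 0.66), 1.72 (SE 0.73), and 1.56 (SE 0.73), with adjusted *p* values of 0.188, 0.0961, and 0.139.

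*Plaur*, the receptor that holds urokinase at the cell surface, rose early. It is on chromosome 7 (24462484–24475968, plus strand). The veins held 11.7 to 94.5 CPM with a median of 35.0 CPM, and early AVFs held 94.6 to 451 CPM with a median of 143 CPM. Every early AVF was above every vein, although early library 1 (94.6 CPM) and contralateral library 28 (94.5 CPM) nearly met. Mid AVFs had 82.7, 85.4, 87.6, 98.7, and 111 CPM, and late AVFs 55.0, 57.9, 78.2, 78.7, and 85.9 CPM. The late AVFs were all below the early AVFs, and both mid and late AVFs overlapped the veins. The means were 45.6 ± 30.3 CPM (SD, n = 7), 205 ± 129 CPM (n = 8), 93.2 ± 11.9 CPM (n = 5), and 71.1 ± 13.8 CPM (n = 5).

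The log2 fold change of *Plaur* was 2.23 in early AVFs (SE 0.39, adjusted *p* = 0.000140, edgeR's quasi-likelihood test with Benjamini-Hochberg adjustment), 1.06 in mid (SE 0.41, adjusted *p* = 0.0958), and 0.64 in late AVFs (SE 0.42, adjusted *p* = 0.366). Between late and early AVFs it was −1.59 (SE 0.43, adjusted *p* = 0.0228). The highest *Plaur* levels, 451 CPM in early library 6 and 341 CPM in library 5, were in the libraries with the highest neutrophil marker sums (4240 and 3256 CPM) and platelet marker sums (11974 and 9059 CPM). Early libraries 1 and 10, with the lowest early neutrophil sums (262 and 347 CPM, against at most 172 CPM in veins), also had the lowest early *Plaur* levels (94.6 and 107 CPM). Early library 7 held more *Plaur* (236 CPM) than early library 3 (155 CPM). Its neutrophil sum (1433 against 2225 CPM) and platelet sum (2552 against 3894 CPM) were lower. Mono/macro marker sums were 30644, 36594, 33272, and 12042 CPM in early libraries 6, 5, 3, and 7. The part of neutrophil, platelet, and mono/macro content in the result was not tested. Without library 6 the early log2 fold change was 2.03 (adjusted *p* = 0.000191).

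*Serpine2* encodes protease nexin-1, an inhibitor of thrombin and of the plasminogen activators, and was highest in late AVFs. It is on chromosome 1 (79794197–79861180, minus strand). Veins ranged from 25.6 to 302 CPM with a median of 68.4 CPM, and early AVFs from 99.0 to 583 CPM with a median of 204 CPM. The mid AVFs had 308, 370, 427, 554, and 649 CPM and the late AVFs 649, 700, 701, 825, and 1028 CPM. Every mid and every late AVF was above every vein, and every late AVF was above every early and mid AVF, the closest pair being late library 23 (649.2 CPM) and mid library 9 (648.8 CPM). The means were 138 ± 121 CPM (SD, n = 7), 243 ± 149 CPM (n = 8), 461 ± 139 CPM (n = 5), and 781 ± 152 CPM (n = 5).

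The log2 fold change of *Serpine2* was 0.84 in early (SE 0.44, adjusted *p* = 0.179), 1.77 in mid (SE 0.49, adjusted *p* = 0.0169), and 2.51 in late AVFs (SE 0.50, adjusted *p* = 0.00135, edgeR), the last of which passed the test. It stayed called when any single library was left out (adjusted *p* from 0.000580 to 0.00466), but not when only the contralateral and late libraries were fitted (2.52, adjusted *p* = 0.0201). In mid AVFs it passed without contralateral library 27 (2.01, adjusted *p* = 0.00907) or 632 (2.07, adjusted *p* = 0.00569). Between late and early AVFs the log2 fold change was 1.66 (SE 0.47, adjusted *p* = 0.0291), and without early library 1 it passed at 1.94 (adjusted *p* = 0.00926). Smooth muscle markers moved the other way, with 9 of 11 called lower in late AVFs and sums of 3373–4731 CPM there. In the single-cell libraries, however, smooth muscle-like cells were 0.791%, 6.00%, and 10.1% of kept cells in the contralateral, early, and late libraries. Marker sums cannot tell fewer cells from less marker RNA per cell. The part of smooth muscle content in the *Serpine2* result was not tested.

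**Figure D3:**
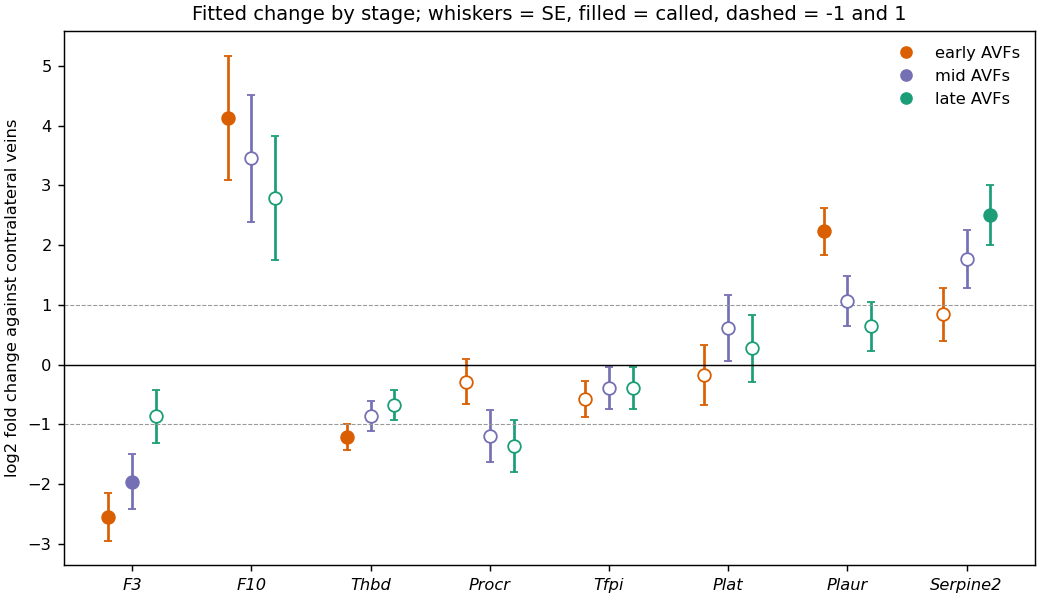
Log2 fold change (vertical axis) of the 8 tested genes in early, mid, and late AVFs against contralateral veins, with whiskers of 1 SE, filled circles for genes called, and dashed lines at −1 and 1. *F3* and *Thbd* are most negative early and move toward 0, *F10* and *Plaur* are most positive early, and *Serpine2* grows from 0.84 to 2.51.

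Counted over the members, 2 were called higher in early AVFs (*F10* and *Plaur*, where 6.17% of all genes were higher) and 2 lower (*F3* and *Thbd*, where 6.45% were lower). Groups did not overlap for 3 of 8 members in early AVFs (6.71% of all genes), for 2 of 8 in mid AVFs (*F10* and *Serpine2*, 12% of all genes), and for 1 of 8 in late AVFs (*Serpine2*, 10.3% of all genes). Between stages they did not overlap for 2 of 8 in late against early AVFs (*Plaur* and *Serpine2*, 14.5% of all genes), 2 of 8 in late against mid AVFs (*F3* and *Serpine2*, 1.87%), and 0 of 8 in mid against early AVFs (8.19%). In late against mid AVFs the gaps were narrow. The lowest late and highest mid libraries were at 154.1 and 150.7 CPM for *F3* and at 649.2 and 648.8 CPM for *Serpine2*. The 3 comparisons share the same contralateral veins. Between AVF stages no member was called by edgeR: 0 of 8 in late against early AVFs (3.01% of all genes), 0 of 8 in mid against early AVFs (0.00789%), and 0 of 8 in late against mid AVFs (0%). At an unadjusted *p* under 0.05, edgeR gave 5 of 8 members in late against early AVFs (*F3*, *Thbd*, *Procr*, *Plaur*, and *Serpine2*, beside 15.9% of all genes), 2 in mid against early (*Procr* and *Plaur*, 12.7%), and 1 in late against mid (*F3*, 0.308%). DESeq2's Wald test called 3 members in late against early AVFs (*F3*, *Plaur*, and *Serpine2*, beside 5.78% of all genes), 0 in mid against early (3.51%), and 0 in late against mid (0.00789%).

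The order of the levels within a group was read per kilobase of exons. In contralateral veins *F3* led with 193 ± 109 CPM per kb (SD, n = 7), ahead of *Thbd* with 56.7 ± 25.3, *Procr* with 46.4 ± 22.9, and *Plat* with 34.0 ± 27.6 CPM per kb. The last 3 of these did not differ beyond their SD, and *F10* and *Plau* were last with 0.708 and 0.543 CPM per kb. In early AVFs *Plaur* led with 78.2 ± 49.3 CPM per kb, and *Procr*, *F3*, *Plat*, *Serpine2*, and *Thbd* followed between 36.8 and 23.8 CPM per kb, with SDs that overlapped. In mid AVFs *Serpine2* (55.7 ± 16.7), *Plat* (51.1 ± 11.4), and *F3* (48.8 ± 10.0 CPM per kb) were level within their SD. In late AVFs *F3* (107 ± 66.2) and *Serpine2* (94.2 ± 18.4 CPM per kb) led within their SD, ahead of *Plat* with 41.5 CPM per kb. *Plau* had the lowest mean among the 9 in every bulk group, with the limit on its bulk level that is given below. In contralateral veins, however, the median of *F10* (0.0901 CPM) was below that of *Plau* (0.830 CPM), and 3 veins held no *F10* read. In the contralateral single-cell library *Plau* was at 27.8 CPM, above *F10* at 2.84 CPM.

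**Figure D4:**
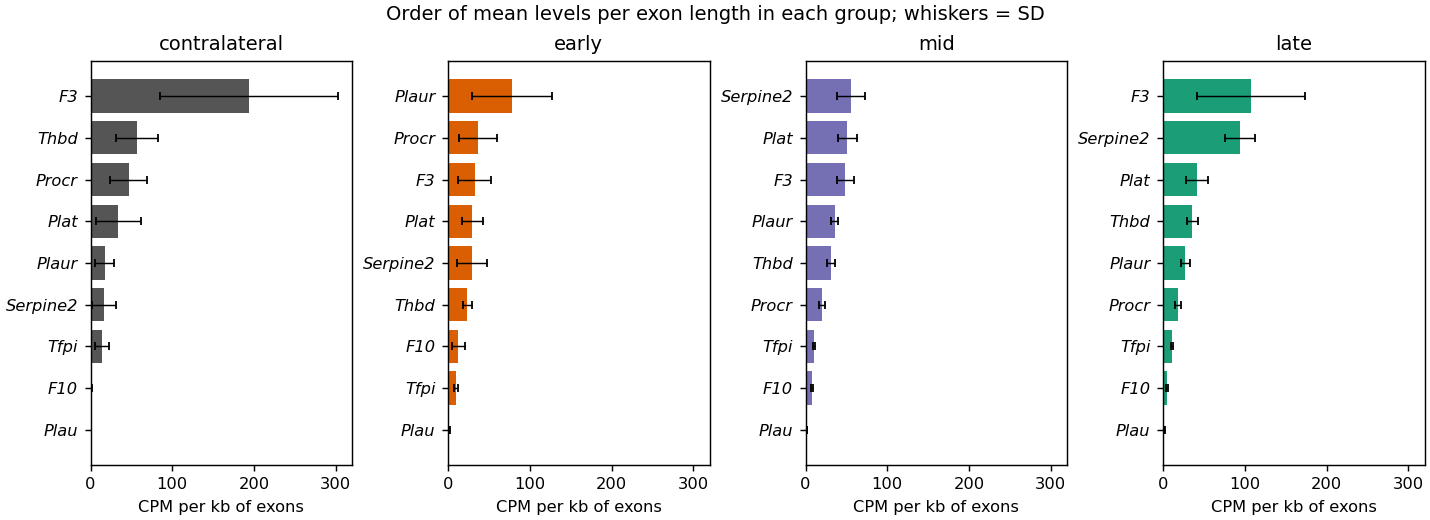
Mean level of the 9 genes in CPM per kilobase of exons (horizontal axes from 0) in each bulk group, in descending order, with whiskers of 1 SD. *F3* is first in contralateral veins and late AVFs, *Plaur* in early AVFs, and *Serpine2* in mid AVFs.

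Beside the members, 46 other genes of coagulation and fibrinolysis were listed, of which 21 were tested. In early AVFs 3 of them were called higher and 4 lower, in mid AVFs 1 and 1, and in late AVFs 2 and 1. Of all genes tested, 12.6%, 6.05%, and 5.33% were called in either direction at these 3 stages. Of 18 clotting factors and cofactors 6 were tested, and the call in all 3 stages was *Vwf*, which encodes the factor that tethers platelets. *Vwf* fell from 1383 ± 476 CPM (SD, n = 7) to 70.6 ± 21.4 CPM in early, 149 ± 30.7 CPM in mid, and 196 ± 68.1 CPM in late AVFs, that is by −4.26, −3.20, and −2.83 on the log2 scale with edgeR adjusted *p* values of 1.04e-11, 5.62e-08, and 4.67e-07. Every AVF was below every vein. *F13a1*, the transglutaminase subunit that cross-links fibrin, was not called (−0.40, −0.85, and −0.32, adjusted *p* = 0.228, 0.0376, and 0.495).

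Among 12 genes listed as anticoagulant or related to an anticoagulant 5 were tested and 2 were called, both lower in early AVFs. *Pros1*, which encodes the protein C cofactor protein S, fell by 1.72 on the log2 scale (SE 0.31, adjusted *p* = 0.000187, edgeR). *Gas6*, a relative of protein S that binds TAM receptors, went from 878 ± 419 CPM (SD, n = 7) in veins to 177 ± 120 CPM (n = 8) in early AVFs (−2.28, adjusted *p* = 0.000152), and was 1348 ± 360 CPM (n = 5) in late AVFs. *Gas6* was called between late and early AVFs (2.89, adjusted *p* = 0.000542), as were *Vwf* (1.43, adjusted *p* = 0.00228) and, downward, *S100a10* (−1.49, adjusted *p* = 0.00650), which encodes a plasminogen-binding partner of annexin A2. Leaving out single libraries ended the *S100a10* call in 8 of 25 cases (adjusted *p* up to 0.0261) and the *Vwf* call in 2 (adjusted *p* up to 0.0119). The *S100a10* call was also lost with filterByExpr, with no filter, and with only the late and early libraries fitted (edgeR adjusted *p* = 0.0104, 0.0110, and 0.0176). The other 3 tested genes of this list were not called against contralateral veins.

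Of 12 genes listed under fibrinolysis, among them a protease of the complement system (*Masp1*), 7 were tested. *Serpinb2*, which encodes a serpin that inhibits urokinase, was at 0 to 0.242 CPM in veins and at 89.3 ± 71.7 CPM (SD, n = 8), 39.4 ± 18.8 CPM (n = 5), and 18.0 ± 7.48 CPM (n = 5) in early, mid, and late AVFs, and was called at all 3 stages (adjusted *p* = 9.46e-10, 1.57e-08, and 1.66e-07, edgeR). *Anxa2*, the annexin that gathers plasminogen at the cell surface, rose early by a log2 fold change of 1.08 (adjusted *p* = 4.89e-05), *Masp1*, which encodes a protease of the complement lectin pathway, fell early by 2.31 (adjusted *p* = 0.00844), and *Lrp1*, which clears activator and inhibitor complexes, was higher in late AVFs (1.20, adjusted *p* = 0.00762). *Anxa2* fell just short of a log2 fold change of 1 with filterByExpr (0.998) and without mid library 12 or 13 or late library 16 or 23 (0.994). *Masp1* lost its call without any 1 of 16 libraries and *Lrp1* without any 1 of 12 (adjusted *p* up to 0.0217 and 0.0331). Both calls were also lost when only the 2 groups compared were fitted (edgeR adjusted *p* = 0.0606 for *Masp1* and 0.0736 for *Lrp1*). With a sex term *Masp1* was not called either (edgeR adjusted *p* = 0.0217). The 3 tested receptors that thrombin and related proteases activate were not called. Of these *F2r*, the main thrombin receptor gene, had log2 fold changes of 1.15, 2.60, and 2.93 (edgeR adjusted *p* = 0.447, 0.132, and 0.0929), while 3 of the 7 veins held no *F2r* read.

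For each member the gene with the most similar course over the 25 libraries was found from standardized log2 CPM, as the root-mean-square difference in SD units. The nearest gene to *F3* was *Selenbp1* (0.384), to *F10* *Fgd3* (0.246), to *Thbd* *Wfdc1* (0.483), and to *Procr* *Ddt* (0.479). The nearest to *Tfpi* was *C1qtnf9* (0.577), to *Plat* *Tug1* (0.343), to *Plaur* *Capg* (0.434), and to *Serpine2* *F2r* (0.396), the thrombin receptor gene. The second nearest gene was almost as near for *F3* (0.386) and *Serpine2* (0.402). Among the members, the closest pairs were *F10* and *Plaur* (0.807), *F3* and *Thbd* (0.868), and *Plat* and *Serpine2* (0.924). A nearest gene was sought among all other genes tested, but a pair only among the 8 members tested. The larger distances between members therefore do not show whether members move together.

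The single-cell libraries were used to see which cells held each transcript. Of 26438 barcodes 16893 were kept, with median depths of 2751, 8951, and 15425 UMIs per cell in the contralateral, early, and late libraries. Between pairs of libraries 5 to 6 of the kept barcodes were shared. Cells were clustered without the 9 genes, the other coagulation genes, and the marker genes, and clusters were called X-like from their markers. With 1 library per condition there was no test between conditions, levels are CPM of summed UMIs, and brackets give 95% exact intervals that cover counting error only. The endothelial-like cluster held 825, 68, and 70 cells in the contralateral, early, and late libraries. It was led by *Pth* and *Chga*, genes of parathyroid cells, followed by *Ptprb*, *Ccl21a*, *Vwf*, *Cytl1*, *Fabp4*, *Pecam1*, *Adgrf5*, and *Cdh5*. Kinds of endothelial cells were not separated within it. Whether the share of parathyroid RNA in this cluster differed between libraries was not tested, so endothelial-like levels compare between libraries only with that limit. Fibroblast-like cells came mostly from clusters 8 and 10 in contralateral veins, from cluster 0 in early AVFs, and from clusters 0 and 11 in late AVFs. Mono/macro-like cells were mostly of cluster 13 (led by *F13a1*, *Mrc1*, and *Cd163*) in contralateral veins and of clusters 1 and 2 in both AVF libraries, so values of these lineages compare different clusters.

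*F3* was highest in fibroblast-like cells in all 3 libraries. Its level there was 817 CPM [802–833] in the contralateral, 152 CPM [145–159] in the early, and 200 CPM [196–204] in the late library, and fibroblast-like cells held 93.1%, 75.8%, and 93.6% of all *F3* UMIs. T cell-like cells, which should lack it, had 40.5, 4.88, and 12.9 CPM. A *F3* UMI was found in 67.3%, 57.3%, and 66.2% of fibroblast-like cells, with median depths of 4373, 29646.5, and 25037 UMIs, and in 12.4%, 3.57%, and 2.81% of T cell-like cells, with median depths of 3526, 5578, and 6422 UMIs. After each cell was thinned to 1000 UMIs, 45.1%, 13.2%, and 16.3% of fibroblast-like cells held an *F3* UMI. Shallower cells were left out, and 1573, 471, and 1996 fibroblast-like cells remained. In T cell-like cells the thinned shares were 4.45%, 0.591%, and 0.525%.

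*F10* differed between the clusters of mono/macro-like cells. The contralateral library held 83 *F10* UMIs in all, against 4393 in the early and 3135 in the late library. None of the 614 contralateral cells of cluster 13 held an *F10* UMI, which allows up to 0.489% of cells with a captured UMI at this depth and a summed level of up to 1.44 CPM, and does not limit the share of cells that express the gene. Cluster 1, led by *Il1b* and *Lyz2*, held 216 CPM [209–223] in the early and 211 CPM [203–219] in the late library, and its 14 contralateral cells held 30 UMIs, or 248 CPM [168–355]. Cluster 2, led by *Lyz2* and C1q genes, held 8.68 CPM [7.09–10.5] in the early and 6.89 CPM [5.41–8.66] in the late library. Mono/macro-like cells thus held 84.8% of *F10* UMIs in the early and 89.3% in the late library, at 129 and 118 CPM, while the lineage average was highest in neutrophil-like cells, at 158 CPM [145–172] and 139 CPM [118–164], below cluster 1 alone. In the early library the leading lineage became platelet-like with cells of at least 1000 UMIs (163 CPM) and mono/macro-like with the deepest 10% of cells left out (141 CPM). In the contralateral library it was highest in platelet-like cells, at 51.3 CPM [32.9–76.4] from 24 UMIs. The share of mono/macro-like cells with an *F10* UMI was 0.989%, 33.5%, and 25.4% in the 3 libraries (median depths 3021.5, 13254, and 13853 UMIs), beside 0.156%, 1.19%, and 2.11% of T cell-like cells, and 0.441%, 9.89%, and 7.44% after thinning, for which 592, 1961, and 1542 cells were deep enough.

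*Thbd* was highest in endothelial-like cells, at 314 CPM [294–334], 116 CPM [93.4–143], and 193 CPM [157–234] in the contralateral, early, and late libraries. Fibroblast-like cells followed with 121, 38.0, and 75.7 CPM, and T cell-like cells had 6.46, 2.44, and 5.26 CPM. Because fibroblast-like cells were more numerous, they held more of the *Thbd* UMIs (58.0%) than endothelial-like cells (34.6%) even in contralateral veins, and in the early library mono/macro-like cells held 48.6%. *Procr* was also highest in endothelial-like cells in the contralateral (284 CPM [266–304]) and early (150 CPM [124–180]) libraries. In the late library endothelial-like cells had 127 CPM [98.4–162], fibroblast-like cells 120 CPM [117–123], and dendritic cell-like cells 138 CPM [125–152], with intervals that overlap between the first 2 and between the first and the last. Within fibroblast-like cells *Procr* was concentrated in cluster 11, led by *Ptx3*, with 312 CPM [283–344] in the contralateral and 229 CPM [221–236] in the late library. *Tfpi* was spread over endothelial-like (61.8, 42.6, and 55.9 CPM) and fibroblast-like cells (34.9, 52.7, and 33.6 CPM), and T cell-like cells had 4.76, 3.26, and 3.83 CPM.

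**Figure D5:**
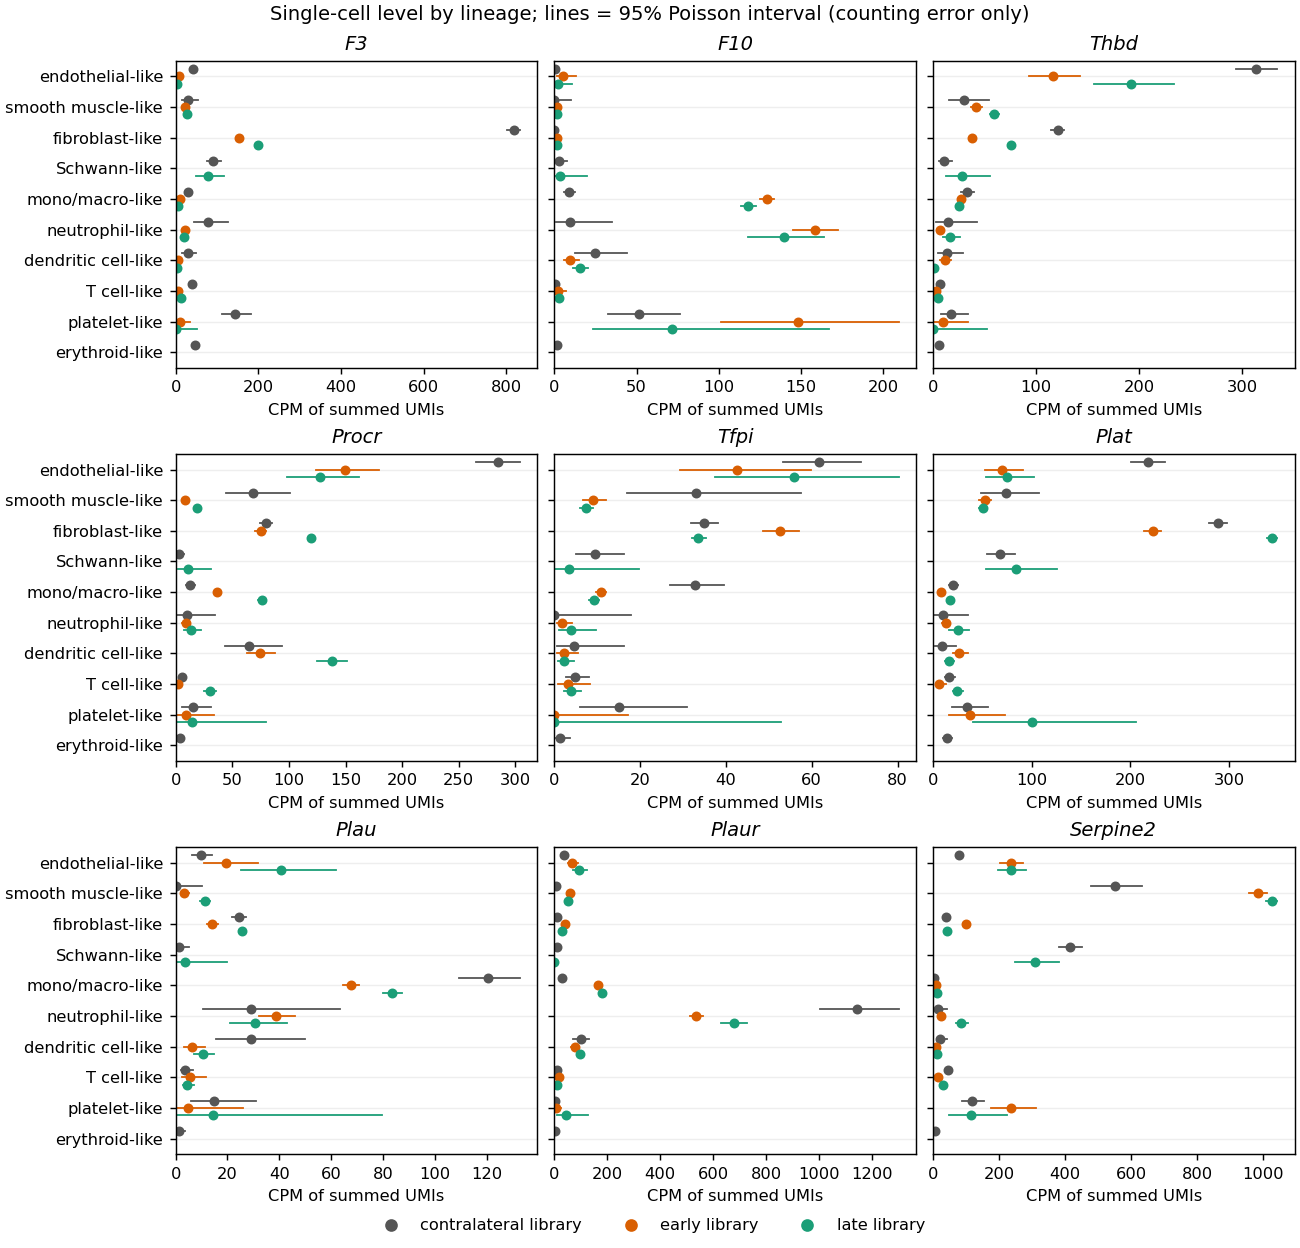
Level of each of the 9 genes in CPM of summed UMIs (horizontal axes) in 10 lineages of the contralateral, early, and late single-cell libraries, with lines for 95% Poisson intervals, which cover counting error only, and lineages of under 20 cells in a library left out. *F3* and *Plat* peak in fibroblast-like, *Thbd* in endothelial-like, *Plau* in mono/macro-like, *Plaur* in neutrophil-like, and *Serpine2* in smooth muscle-like cells in all 3 libraries.

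*Plat* was led by fibroblast-like cells in every library, at 289 CPM [279–298], 223 CPM [214–231], and 344 CPM [339–349], and these cells held 79.4%, 78.5%, and 92.6% of its UMIs. Endothelial-like cells had 217 CPM [201–235] in the contralateral library and 69.7 and 75.2 CPM in the early and late libraries, and T cell-like cells 16.7, 6.51, and 24.6 CPM. *Plau* was led by mono/macro-like cells, at 121 CPM [109–133], 67.6 CPM [64.6–70.6], and 83.5 CPM [79.9–87.3], with T cell-like cells at 3.74, 5.70, and 4.55 CPM. The activator and its receptor differed in their leading cells. *Plaur* was highest in neutrophil-like cells, at 1145 CPM (61 cells) in the contralateral, 535 CPM [511–561] (786 cells) in the early, and 677 CPM [628–729] (289 cells) in the late library. In mono/macro-like cells *Plaur* was 27.5 CPM [22.2–33.7], 165 CPM [160–170], and 182 CPM [176–187], and cluster 1 held more (246 and 296 CPM in the early and late libraries) than cluster 2 (53.3 and 45.3 CPM). Mono/macro-like cells held 61.2% and neutrophil-like cells 22.5% of the *Plaur* UMIs in the early library.

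*Serpine2* was highest in smooth muscle-like cells, at 552 CPM [478–633] (50 cells), 984 CPM [957–1011] (285 cells), and 1026 CPM [1008–1043] (586 cells) in the contralateral, early, and late libraries. These cells held 11.5%, 72.8%, and 80.5% of its UMIs. In the contralateral library Schwann-like cells were next with 416 CPM and held 32.7% of the UMIs, and they led (466 CPM) once the deepest 10% of cells in each lineage were left out. Endothelial-like cells had 78.2 CPM [68.5–88.9], 236 CPM [203–273], and 237 CPM [197–283], and mono/macro-like cells had 3.51, 8.56, and 13.1 CPM. A *Serpine2* UMI was in 58.0%, 86.0%, and 93.0% of smooth muscle-like cells (median depths 5303.5, 19314, and 23481 UMIs) and in 3.58%, 10.1%, and 15.1% of T cell-like cells. Thinned to 1000 UMIs, which 47, 272, and 544 smooth muscle-like cells allowed, 25.6%, 52.3%, and 59.0% of smooth muscle-like cells held a *Serpine2* UMI, beside 1.45%, 2.17%, and 3.49% of T cell-like cells. Over all 9 members, 6 had the same leading lineage in the 3 libraries, and *F10*, *Procr*, and *Tfpi* did not. When cells with 3 or more markers of another lineage were left out, which removed 5438 of 6319, 3865 of 4753, and 4893 of 5821 kept cells, the leading lineage stayed as given in only 8 of 27 pairs of gene and library.

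Levels in the whole single-cell libraries and in bulk libraries of the same stage differed most for *Plau*. The mice of the 2 assays were not taken at the same days, and the single-cell AVFs were on average older than the bulk AVFs of the same name. Its bulk mean was 0.0462, 0.0701, and 0.104 times its single-cell level in contralateral, early, and late vessels (27.8, 43.0, and 36.4 CPM in the single-cell libraries). For the other 8 members this ratio was between 0.415 and 4.72. No other gene overlaps *Plau* in GENCODE M21, and the sources used here do not give the annotation behind the bulk counts. The cause of the low bulk level of *Plau* was not tested, and its bulk values are to be read with that limit.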

How the data were processed

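The authors made poly(A)-selected bulk libraries from single vessels with an ultra-low-input protocol, and deposited whole-number read counts per Ensembl gene without normalization for 25 libraries. Per the labels, STAR and Cell Ranger were used with mm10 and GRCm38, but which build and annotation gave the bulk counts is not given in the sources used here. For single cells the authors deposited UMI counts of 3 libraries, from Cell Ranger 6.0.2 per the file headers. Groups were taken from the deposited labels. Members and lists were chosen with earlier results of these data known.

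From these counts, the 12673 genes whose mean normalized count (DESeq2 size factors) reached 100 were fitted with edgeR 4.0.16 in R 4.3.3, with TMM scaling, 1 mean per group, and all 4 groups together, and *p* values were adjusted by Benjamini-Hochberg over all genes. The script was tested on simulated data. Symbols came from the gene lists of the matrices (32210 genes) or the reference (19962 genes), and 4808 genes had none, while coordinates and exon lengths from GENCODE M21 on GRCm38. The named genes are the 9 members, *Vwf*, *F13a1*, listed pathway genes called against contralateral veins (at most 4 per list, by size of change), and the gene nearest to each member. *S100a10* was named after its values were seen, and 1 gene that the rule names is not reported here.

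Cells were kept if they had 200 to 6000 genes and no more than 10% mitochondrial UMIs. The 2000 most variable genes, 12 principal components, 20 neighbors, and leidenalg 0.10.2 at resolution 0.5 (Python 3.11.15) gave 17 clusters. No doublet caller was run, and cells with markers of another lineage were left out as an alternative. Intervals are exact Poisson and Clopper-Pearson. Read counts carry no molecular identifiers in bulk, so floors cover counting error only. Alternatives were DESeq2 1.42.0 size factors and Wald test, other filters, an adjusted *p* of 0.05, a sex term, only the groups compared, each library left out, and other single-cell filters.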

Additional observations from a re-analysis of the deposited data

Results flagged for a closer look

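In 3 of 36 tests of a gene's levels within a group, the highest library lay far from the rest, where such a gap arises by chance in about 1 of 20 groups. *F3* in late library 17 was 559 CPM, and the next late library was at 257 CPM. *F10* in early library 6 was 81.6 CPM, and the next early library was at 43.9 CPM. *Serpine2* in early library 1 was 583 CPM, and the next early library was at 300 CPM.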

How the results depend on the processing

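The number of members called against contralateral veins was 4 for early, 1 for mid, and 1 for late AVFs, and 0 between AVF stages. With DESeq2's Wald test it was 3 in mid AVFs (11% of all genes) and 3 in late against early AVFs (5.78%). With an adjusted *p* of 0.05 it was 3 in mid AVFs (11.2% of all genes), 2 in late AVFs (10.3%), and 3 in late against early AVFs (6.27%). With only the groups compared it was 0 in late AVFs (2.2%), and 1 in late against early AVFs (4.7%). When each library was left out in turn, it was 3 to 4 for early, 0 to 2 for mid, 1 to 2 for late AVFs, and 0 to 1 in late against early AVFs, and 0 to 0 in the other 2 comparisons. Of all single-gene results, 1734 of 1800 kept direction and side of the threshold without 1 library, and 482 of 509 under other settings. Over all genes, edgeR called 1599 for early, 767 for mid, and 676 for late AVFs against veins, and 381 for late against early AVFs, where DESeq2's Wald test called 2410, 1398, 1278, and 733. Mid against early AVFs had 1 and 445. With filterByExpr 3803 of 20076 genes were called in early AVFs, 73.4% of them higher (48.9% of the 1599), and the median log2 fold change of all genes was 0.195. Direction turned for *Plat* in early AVFs without contralateral library 34 (0.13) or 632 (0.066), with a range of −0.41 to 0.13 over all single libraries left out, and for *Gas6* in mid AVFs without contralateral library 633 (0.0083) or mid library 15 (0.024), with a range of −0.59 to 0.024. *F10* in early AVFs lost its call with only the groups compared (4.15, adjusted *p* = 0.0473). The cause of these changes was not tested. No paired analysis was possible because the groups share no library numbers.

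The 6 members with 1 leading lineage in all 3 libraries numbered 6 under every single-cell alternative. The genes and lineages were not always the same: leading lineages were kept in 26 to 27 of 27 pairs of gene and library with 20% mitochondrial counts, 1000 UMIs, or resolution 1, in 24 with the deepest 10% of cells by UMIs left out (chosen after seeing the data), and in 8 with cells holding 3 or more markers of another lineage left out, which removed 5438, 3865, and 4893 cells. Spread among contralateral veins, few endothelial-like AVF cells, and unequal UMI depth limit the comparisons.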

Other observations

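In late AVFs every one of the 3 female vessels was above both male vessels for 5 of 9 members (*F10*, *Thbd*, *Procr*, *Plat*, and *Plaur*), where 33.3% of all genes tested were. In mid AVFs this held for 2 of 9 members (*Plat* and *Plaur*), beside 12.7% of genes, and for 0 of 9 in contralateral veins, beside 3.17%. In early AVFs every female vessel was below every male vessel for 1 member (*Plau*), beside 2.25% of genes. These groups are small and no test was made.

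In the single-cell libraries *Vwf* in endothelial-like cells was 2060, 240, and 229 CPM (contralateral, early, and late), and in platelet-like cells 809, 1103, and 701 CPM. *F13a1* in mono/macro-like cells was 2194, 441, and 377 CPM, and *Gas6* in fibroblast-like cells was 2387, 509, and 878 CPM. These 2 lineages were made mostly of different clusters in the contralateral and AVF libraries. Cluster 13, led by *F13a1*, held 614 contralateral, 18 early, and 9 late cells. In bulk, the mean *Gas6* level of late AVFs was above that of the veins, without being called, so the 2 assays differed in direction there.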
